A study of Mus musculus with 22 samples.

Results

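Ribosome-bound RNA was compared with whole cochlear RNA at postnatal day 28 (P28) in the mouse. The 4 libraries whose titles give this age were taken from a series of 22: pulldowns IP 1 and IP 2, and whole-cochlea inputs input 1 and input 2. All other libraries served to estimate the spread between replicates, or for the comparison with other ages (P8, P14, 6 weeks and 10 weeks). Every mouse behind these groups, inputs included, was PrestinCreERT2/+;RiboTagHA/+ and received tamoxifen. The tissue of all 4 libraries was labelled whole cochlea. The dose was 3 mg per 40 g of body weight in mice under 21 days old and 9 mg per 40 g from 21 days on. The labels do not say at which age the P28 mice were injected. The series' design text describes independent biological duplicates or triplicates. It lists P21 among the ages where the sample labels have P28, and the labels were followed.

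Outer hair cells are the sensory cells of the cochlea that change length with membrane voltage and so amplify sound. The motor protein behind this is prestin, encoded by Slc26a5, and the Cre recombinase of these mice is expressed from the prestin locus. Once tamoxifen has activated Cre, recombined cells make the ribosomal protein Rpl22 with a haemagglutinin (HA) tag, and an antibody to the tag pulls down their ribosomes with the RNA bound to them. The pulldown takes whatever RNA comes with tagged ribosomes, and outer hair cells are a small minority of cochlear cells. A bulk difference between pulldown and input cannot tell fewer cells of a type from less RNA per cell.

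Values are read counts scaled to 1000000 reads of a library (CPM), and pairs of values are given in the order IP 1 and IP 2, or input 1 and input 2. Differences are IP minus input on log2(CPM + 1), which understates the change of genes with low values. Called genes are those with an adjusted p (Benjamini-Hochberg) under 0.05 in limma, fitted over all 22 libraries and 18737 genes. The spread estimate is shared between the ages, because each P28 group holds only 2 libraries. Replicates correlated least at P28 (values below), so the shared estimate can understate the spread at P28. A single value compared 2 against 2 could not reach an exact permutation p below 0.33. Coordinates are those of GRCm38.

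The 4 libraries held 54430021 reads in input 1, 33247752 in IP 1, 43155618 in input 2 and 47268951 in IP 2. Reads counted to genes numbered 33974166, 15306134, 26254430 and 24692236 in the same order. Reads that the files count to no annotated feature made up 42.4% of IP 1 and 30.2% of IP 2, against 13.9% of input 1 and 11.2% of input 2. Reads aligned to several places made up 10.7% and 16.6% of the pulldowns and 21.7% and 26.1% of the inputs.

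IP 2 stood apart from the other libraries at P28. Of 8338 genes at 5 CPM or more in the other 3 libraries, 826 (9.91%) were below 1 CPM in IP 2, and 45 had no read. The same share was 0.999% for IP 1, 0.824% for input 1 and 3.67% for input 2. Genes with at least 1 read numbered 14357 in IP 2, against 17882 in IP 1. The correlation of log2 levels across genes was 0.792 between the pulldowns and 0.861 between the inputs. Both were below every other pair of replicates in the series (0.864 to 0.989). Some hair cell genes were near 0 in IP 2, while others were highest there. Of 15 outer hair cell markers, 1 had no read in IP 2. Their summed level was 916 CPM in IP 2 and 521 CPM in IP 1. Chrna10 (nicotinic receptor of the efferent synapse) had 18.9 CPM in IP 1 and no read in IP 2. Pou4f3, a transcription factor that hair cells need to survive, had 14.9 CPM in IP 1 and 0.106 CPM in IP 2. Counts are therefore given with and without IP 2.

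**Figure D1:**
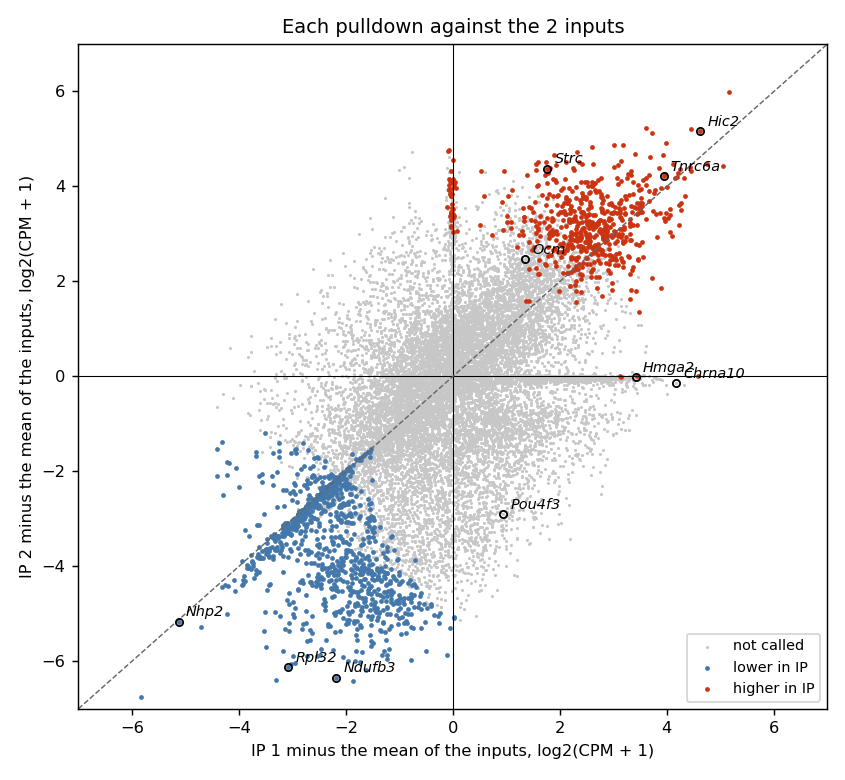
Difference of IP 1 (x axis) and of IP 2 (y axis) from the mean of the inputs on log2(CPM + 1) for each of the 18737 tested genes at P28, with genes called higher in IP in red and lower in IP in blue, and the dashed line marking equal differences. Chrna10 and Hmga2 lie far right at about 0 on the y axis, Ndufb3 and Rpl32 lie well below the line, and Hic2 and Tnrc6a lie near it.

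In the whole comparison, 593 genes were higher in the pulldown (3.16% of those tested) and 968 were lower (5.17%), 8.33% in all. At an unadjusted p under 0.05, 4493 genes passed. With only the P28 libraries in the limma fit, 0 genes were called and 2628 had an unadjusted p under 0.05. The median difference of all tested genes was −0.03, and −0.17 with the filter at 5 CPM. CPM was taken over all reads, of which 46.0% and 52.2% were counted to genes in IP and 62.4% and 60.8% in input. This scale lowers gene values in IP relative to input. Without IP 2, 574 genes were higher (3.06%) and 260 lower (1.39%), 4.45% in all, of which 181 and 201 were also called with IP 2. The direction was shared by both fits for 563 of the 593 higher and 966 of the 968 lower genes. Both pulldowns lay beyond both inputs for 553 of the 593 and for 961 of the 968. Over all tested genes, both pulldowns were above both inputs for 16.5% and below them for 26.3%. The calls were made from these same libraries, so the shared direction and the lack of overlap are not separate support for them. Against the inputs, the called higher genes had a median difference of 2.53 in IP 1 and 3.25 in IP 2, and the called lower genes of −2.25 and −3.55. The counts were 199 higher and 470 lower without input 2, and 974 higher and 1824 lower without IP 1. They were 1497 and 2626 without P8 input 2 and P14 IP 1, libraries of other ages in which 58.3% and 10.2% of gene reads fell on the single gene Gm42418 (2.39% to 6.48% at P28). With CPM taken over gene reads only, the split was 1313 higher and 1137 lower.

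**Figure D2:**
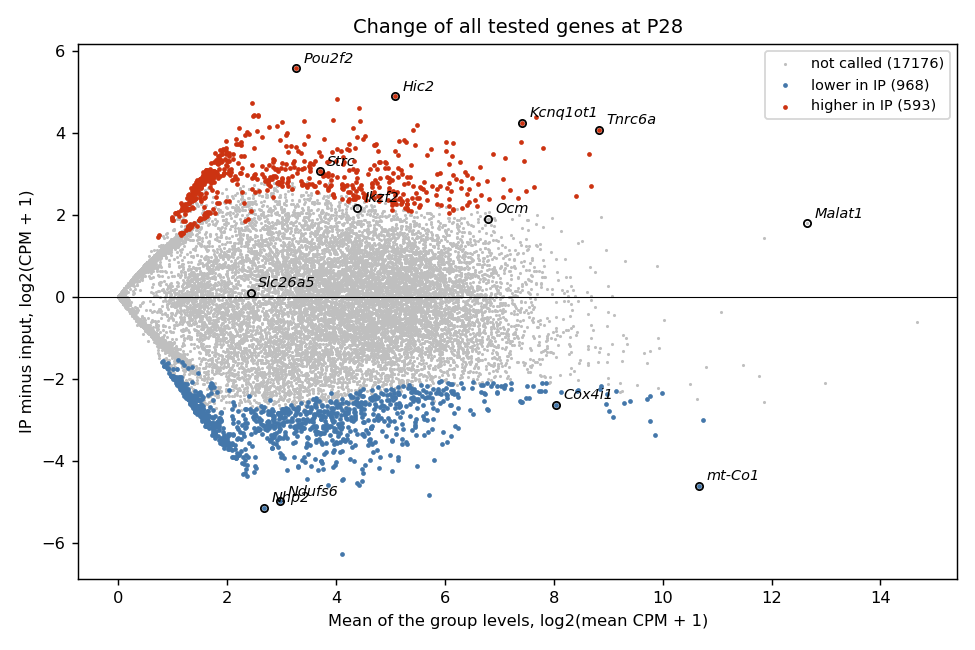
Difference between IP and input at P28 (y axis, log2(CPM + 1)) against the mean level of the groups (x axis, log2(mean CPM + 1)) for the 18737 tested genes, with 593 called higher in red and 968 called lower in blue. Hic2, Tnrc6a and Kcnq1ot1 stand among the higher genes and mt-Co1 and Cox4i1 among the lower, while Ikzf2 and Ocm lie at the upper edge of the genes not called.

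Ikzf2 and Ocm, which mark outer hair cells, were higher in both pulldowns than in both inputs, but did not pass the threshold. Ikzf2 (chr1:69531214-69687245) encodes Helios, a transcription factor that sets outer hair cell identity. It stood at 28.3 and 60.8 CPM in IP and at 7.09 and 10.1 CPM in input, a difference of 2.17 ± 0.77 (SE, limma adjusted p = 0.0627). Ocm (chr5:144019804-144026670) encodes oncomodulin, the calcium buffer of outer hair cells. It stood at 136 and 295 CPM in IP and at 36.7 and 75.3 CPM in input, a difference of 1.91 ± 0.71 (limma adjusted p = 0.0767). In both genes the pulldowns lay above the inputs without overlap, as in 16.5% of all tested genes, and IP 2 held the highest level. Both were past the threshold with TMM scaling (limma adjusted p = 0.0021 for Ikzf2 and 0.0042 for Ocm). On recovered reads both passed in edgeR's quasi-likelihood test, with adjusted p = 0.0024 for Ikzf2 and 0.0072 for Ocm. Without IP 2 the differences were 1.63 for Ikzf2 and 1.35 for Ocm, with limma adjusted p = 0.344 and 0.426.

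Neither the driver gene nor the tagged gene was called. Slc26a5 (chr5:21810655-21865604) was at 5.59 and 1.61 CPM in IP and at 10.5 and 0.301 CPM in input, so that the inputs enclosed both pulldowns. The difference was 0.10 ± 0.9997 (SE), and it was 1.67 without input 1 and −1.47 without input 2. One of its alleles carries the Cre in these mice. Rpl22 (chr4:152325742-152334071) was at 32.0 and 44.4 CPM in IP and at 66.3 and 70.7 CPM in input, a difference of −0.84 with limma adjusted p = 0.49. Both pulldowns were below both inputs, as in 26.3% of all tested genes, and Rpl22 was called lower under 3 of 17 alternative settings. Its total level does not separate tagged from untagged transcripts.

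Among 15 outer hair cell markers, 1 was called higher and 0 lower, beside 3.16% and 5.17% of all tested genes. Their median difference was 0.71, against −0.03 for all genes, and 12 of the 15 were above 0. The summed level was 521 and 916 CPM in the pulldowns and 382 and 453 CPM in the inputs. The gene called was Strc (chr2:121363728-121387168), which encodes stereocilin, the protein that links the stereocilia of outer hair cells to each other and to the tectorial membrane. Strc was at 10.1 and 66.6 CPM in IP and at 6.16 and 0.487 CPM in input, a difference of 3.07 (limma adjusted p = 0.0204). IP 2 was far above the other 3 libraries. The adjusted p was 0.354 without IP 2 and 0.306 without input 2. Bcl11b, a zinc finger transcription factor, was at 6.14 and 30.5 CPM in IP and at 0.367 and 3.52 CPM in input (limma adjusted p = 0.0949). Cacng2, an auxiliary subunit of AMPA receptors, was at 38.0 and 105 CPM in IP and at 13.9 and 20.3 CPM in input (limma adjusted p = 0.144). Without IP 2, Chrna10 was the outer hair cell marker that passed (limma adjusted p = 0.0135). Its inputs were at 0.147 and 0.0695 CPM.

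**Figure D3:**
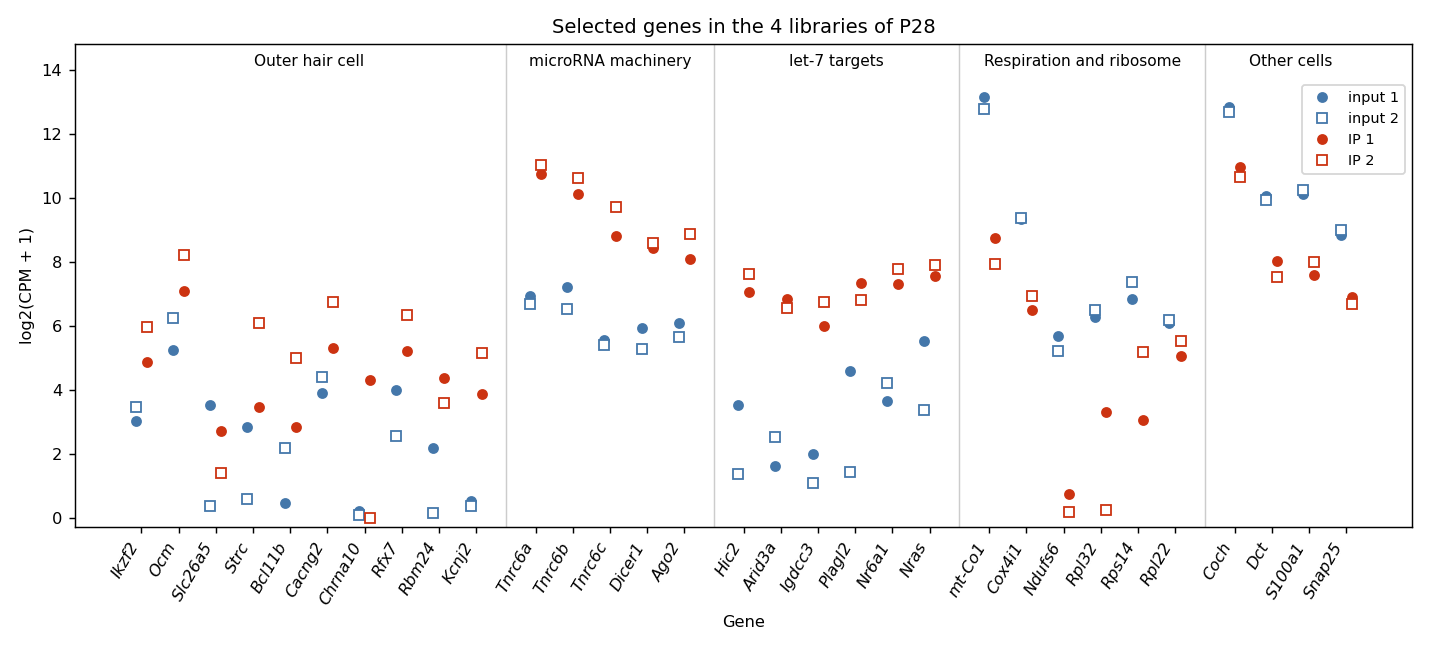
Level on log2(CPM + 1) (y axis) of selected genes (x axis) in each of the 4 libraries of P28, with inputs in blue, pulldowns in red, replicate 1 as filled circles and replicate 2 as open squares. The microRNA machinery and let-7 target genes drawn, all called higher, sit above the inputs in both pulldowns. The respiration and ribosome genes drawn sit below them. The selected genes do not stand for their whole lists. Outer hair cell genes differ between IP 1 and IP 2, and that group includes Rfx7, Rbm24 and Kcnj2 from other lists.

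Of 15 markers common to both hair cell types, 1 was higher and 0 lower, beside 3.16% and 5.17% of all genes, with a median of 0.21. That gene was Rbm24 (chr13:46418434-46431095), an RNA-binding protein that controls splicing in hair cells, at 19.4 and 10.98 CPM in IP and 3.51 and 0.116 CPM in input. Its difference was 2.80 (limma adjusted p = 0.0476), and the adjusted p was 0.0688 without IP 2. Both pulldowns were above both inputs, as in 16.5% of all tested genes. Of 9 tested inner hair cell markers, 0 were higher and 1 lower, beside 3.16% and 5.17% of all genes, with a median of −0.55. The lower gene was Slc7a14, an amino acid transporter family member. It was at 18.8 and 0.127 CPM in IP and 35.4 and 28.3 CPM in input (limma adjusted p = 0.0318, and 0.783 without IP 2). Slc17a8, the glutamate transporter VGLUT3 of inner hair cells, was at 4.39 and 0.0635 CPM in IP and 10.6 and 0.880 CPM in input, so the groups overlapped. Cabp2, an inner hair cell calcium-binding protein, was listed at 0 in all 4 libraries. Without IP 2 the call of Slc7a14 was replaced by that of Dnajc5b, a cysteine string protein, with 2.83 CPM in IP 1 and no read elsewhere.

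Among 18 tested transcription factors of hair cells, 1 was higher and 0 lower, beside 3.16% and 5.17% of all tested genes. The median was 0.19. Rfx7 (chr9:72532240-72622937) belongs to the regulatory factor X family, other members of which keep outer hair cells alive after hearing onset. It stood at 35.7 and 79.0 CPM in IP and at 14.9 and 4.82 CPM in input, a difference of 2.49 (limma adjusted p = 0.0246). The pulldowns lay above the inputs, and the adjusted p was 0.211 without IP 2. The other family members on the list, Rfx1, Rfx2 and Rfx3, had differences of −0.96, 0.84 and 0.84 and were not called. Lhx3, a LIM homeobox factor, had 6.71 CPM in IP 1 and no read in the other 3 libraries.

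Of 10 tested genes of the mechanotransduction complex, 0 were called in either direction, with a median of 0.10. Of all tested genes 3.16% were higher and 5.17% lower, so a list of 10 could hold 0 calls at these shares. Tmc1, a pore-forming subunit of the transduction channel, was at 4.93 and 1.23 CPM in IP and 0.900 and 3.59 CPM in input. Of 33 genes of the stereocilia bundle and cuticular plate, 1 (Strc) was higher and 2 were lower, beside 3.16% and 5.17% of all genes, with a median of 0.02. The lower genes were Otog, which encodes otogelin of the tectorial membrane, and Pls3, an actin-bundling plastin. Otog was at 12.8 and 0.444 CPM in IP and 29.7 and 35.7 CPM in input (limma adjusted p = 0.0147, and 0.472 without IP 2). Pls3 was at 14.2 and 9.29 CPM in IP and 69.0 and 46.3 CPM in input (limma adjusted p = 0.0467, and 0.208 without IP 2). Without IP 2, 4 genes of this list were higher and 0 lower. These were Xirp2, Gpsm2, Myo3b and Sptbn5, all near 0 in both inputs and at 6.20 to 10.8 CPM in IP 1. Xirp2 encodes an actin-binding protein of the bundle and had 0.931 CPM in IP 2. Gpsm2, a polarity protein at bundle tips, had 0.0212 CPM in IP 2, where Myo3b and Sptbn5 had no read.

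At the basolateral membrane and its synapses, 1 of 15 tested genes was higher and 1 lower, beside 3.16% and 5.17% of all tested genes. The median was 0.88. Kcnj2 (chr11:111066164-111076821) encodes the inward rectifier potassium channel Kir2.1. It was at 13.5 and 34.2 CPM in IP and at 0.441 and 0.301 CPM in input, a difference of 4.04 (limma adjusted p = 0.00448). The groups lay far apart, and Kcnj2 also passed without IP 2 (limma adjusted p = 0.0491). P2rx2, an ATP-gated channel of the cochlea, was lower, at 5.14 and 0.190 CPM in IP and 33.3 and 31.2 CPM in input (limma adjusted p = 0.00374, and 0.121 without IP 2). Without IP 2, 4 genes of the list were higher and 0 lower: Kcnj2, Chrna10, Musk and P2rx3. Musk, a receptor kinase of the neuromuscular synapse, and P2rx3, another ATP-gated channel, had 6.17 and 4.18 CPM in IP 1 and no read in the other 3 libraries. Of 14 tested genes of the ribbon synapse, 0 were higher and 1 (Syt6) lower, beside the same shares of all tested genes. Cacna1d, the calcium channel subunit at the ribbon, was at 73.3 and 49.4 CPM in IP and 23.7 and 25.4 CPM in input (limma adjusted p = 0.286). Among 19 genes of calcium buffering and homeostasis, 0 were higher and 3 lower, beside 3.16% and 5.17% of all tested genes. The median was −1.22. The lower genes were Calb2 (calretinin), S100a1 and Letm1, a cation exchanger of mitochondria. Calb2 was at 87.5 and 50.4 CPM in IP and 475 and 322 CPM in input (limma adjusted p = 0.0109). S100a1 was at 192 and 250 CPM in IP and 1095 and 1207 CPM in input (limma adjusted p = 0.0299). All 3 lost the call without IP 2, with adjusted p from 0.094 to 0.149.

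The largest differences lay outside these hair cell lists. Pou2f2, a POU-domain transcription factor best known from B cells (chr7:25087344-25179726), was at 48.0 and 85.4 CPM in the pulldowns and at 0.404 and 0.324 CPM in the inputs. Its difference was 5.58 (limma adjusted p = 0.000123). The next were Hic2, a zinc finger repressor, with 4.89, and Igdcc3, an immunoglobulin superfamily membrane protein, with 4.83. Hic2 was at 133 and 194 CPM in IP and at 10.5 and 1.58 CPM in input. Igdcc3 was at 62.7 and 106 CPM in IP and at 3.01 and 1.11 CPM in input. They were followed by En2, a homeobox factor, with 33.9 and 21.8 CPM in IP and 0.0184 and 0.0927 CPM in input, a difference of 4.74. Arid3a, a DNA-binding protein of the ARID family, was at 112 and 92.4 CPM in IP and 2.06 and 4.73 CPM in input, a difference of 4.62. In these 5 genes every pulldown value was at least several times every input value. The remaining 7 of the 12 largest were Mlxipl, Hif3a, Trim46, Zbed4, Fam214a, Bach2 and Sox12, with differences from 4.44 down to 4.29. Mlxipl, Hif3a, Bach2 and Sox12 encode transcription factors. In IP 1 alone the differences of the 12 from the inputs ran from 3.605 (Trim46) to 5.17 (Pou2f2). The 12 were picked from a fit that held IP 1 and these inputs, and only where the groups did not overlap. Neither their values in IP 1 nor the lack of overlap is therefore separate support.

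Of the 12 largest decreases, 4 encode cytosolic ribosomal proteins or a ribosome assembly factor, and 3 encode subunits of the respiratory chain. Nhp2 (chr11:51619735-51623714), a small nucleolar ribonucleoprotein needed for ribosomal RNA modification, was at 0.0902 and 0.0635 CPM in IP and at 34.8 and 39.6 CPM in input, a difference of −5.15. Ndufs6, of respiratory complex I, was at 0.662 and 0.127 CPM in IP and 50.2 and 36.0 CPM in input, a difference of −4.99. Rpl32, a protein of the large ribosomal subunit, was at 8.81 and 0.190 CPM in IP and 76.5 and 88.4 CPM in input, a difference of −4.61. In Nhp2 and Ndufs6 both pulldowns were near 0, whereas in Rpl32 IP 2 was far below IP 1. The others were mt-Co1, Rpl7a, Ifi27l2a, Tusc3, Ndufc1, Emc4, Resp18, Hacl1 and Rps7, with differences from −4.62 to −4.31. These 12 were picked from a fit that held IP 1 and the same inputs, so calls that remain without IP 2 are not separate support. Without IP 2, 10 of the 12 remained called. The exceptions were Ifi27l2a (limma adjusted p = 0.0589) and Emc4 (0.0533).

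Genes of the microRNA silencing machinery were among those higher in the pulldown. MicroRNAs are short RNAs that an Argonaute protein carries to target messages by base pairing of their seed, and the TNRC6 (GW182) proteins bound to Argonaute bring in the deadenylases that silence the message. Of 19 tested genes of this machinery, 7 were higher and 0 lower, beside 3.16% of all genes higher, and the median difference was 1.82. The list was chosen with earlier results of these data known, so its counts are not separate support. The summed level was 4564 and 5987 CPM in the pulldowns and 942 and 807 CPM in the inputs. Without IP 2, 5 were higher and 0 lower. Dgcr8, a partner of the processing enzyme Drosha, was listed at 0 in all 4 libraries.

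All 3 TNRC6 genes rose. Tnrc6a (chr7:123123885-123195296) was at 1698 and 2060 CPM in IP and at 120 and 101 CPM in input, a difference of 4.08 (limma adjusted p = 0.000558). Tnrc6b (chr15:80711313-80941085) was at 1096 and 1567 CPM in IP and at 148 and 90.8 CPM in input, a difference of 3.49 (limma adjusted p = 0.00244). Tnrc6c (chr11:117654289-117763439) was at 444 and 836 CPM in IP and at 45.8 and 41.3 CPM in input, a difference of 3.78 (limma adjusted p = 0.000842). The pulldowns lay far above the inputs in each, and all 3 passed without IP 2. Dicer1, the enzyme that cuts microRNA precursors (chr12:104687742-104751952), was at 342 and 379 CPM in IP and 60.2 and 38.0 CPM in input, a difference of 2.89 (limma adjusted p = 0.00687). Ago2, the Argonaute that can slice its target (chr15:73095844-73184935), was at 269 and 465 CPM in IP and 66.1 and 49.3 CPM in input, a difference of 2.61 (limma adjusted p = 0.0177). Dicer1 passed without IP 2 and Ago2 did not (limma adjusted p = 0.0471 and 0.137). Trim71, an RNA-binding ubiquitin ligase of early development, and Cnot3, a subunit of the CCR4-NOT deadenylase, were the others called. Cnot3 lost its call without IP 2 (limma adjusted p = 0.285). The machinery did not move as a block. Drosha was at 29.8 and 23.8 CPM in IP and 69.8 and 25 CPM in input, Cnot1 had a difference of 0.17, and Ddx6, the helicase that represses bound messages, one of 0.23.

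Hic2, Igdcc3, Arid3a and Trim71 are long known as targets of the let-7 microRNAs. The let-7 family accumulates as tissues mature and holds down genes of fetal growth. Family members share their seed, bases 2 to 8, shown here in capitals in mature sequences from RefSeq (GRCm38.p6) so that the match in the messages can be read off. The gene positions are chr13:48538239-48538260 (minus strand) for let-7a, chr9:106178846-106178867 (plus) for let-7g, chr10:122985698-122985719 (minus) for let-7i and chrX:151913229-151913250 (plus) for miR-98.
mmu-let-7a-5p: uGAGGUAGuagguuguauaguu
mmu-let-7g-5p: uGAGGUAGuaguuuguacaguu
mmu-let-7i-5p: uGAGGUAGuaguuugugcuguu
mmu-miR-98-5p: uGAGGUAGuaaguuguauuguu
In all, 11 mature mouse microRNA names in that table carry this seed, and the 4 shown differ from each other outside it.

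The heptamer complementary to the seed, CTACCTC, was searched on the sense strand of the longest annotated 3' untranslated region (UTR) of 14809 of 14884 tested protein-coding genes (GENCODE M21). It was found in 1558 of them (10.5%). Of the 12 genes with the largest increase, 5 held it: Pou2f2, Hic2, Igdcc3, Arid3a and Hif3a. Of the 11 searched among the 12 with the largest decrease, 0 did. One match each of these 5 genes, and of Trim71, is printed with its flanks, 5' to 3' on the message strand, with the heptamer in capitals.
Hic2: gtgctggtgactattCTACCTCcctgg
Igdcc3: tgtgactctcagcacCTACCTCagccg
Arid3a: aaggcaagtttctttCTACCTCaggtc
Pou2f2: tttctgctctggagtCTACCTCctccc
Hif3a: cagccagccacagtcCTACCTCagccc
Trim71: aacattgcctaagtcCTACCTCagctt
These lie at chr16:17259369-17259395 (plus) for Hic2, chr9:65185707-65185733 (plus) for Igdcc3, chr10:79953895-79953921 (plus) for Arid3a and chr7:25091661-25091687 (minus) for Pou2f2. Those of Hif3a and Trim71 lie on the minus strand at chr7:17035731-17035757 and chr9:114512468-114512494. A match is a description of the letters and was not tested as a site.

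The median difference between pulldown and input was larger in groups of genes with more matches. It was −0.15 for 13251 genes with no match, 0.31 for 1362 genes with 1, 0.65 for 168 genes with 2 and 1.82 for 28 genes with 3 or more. The shares called higher were 2.26%, 6.75%, 14.3% and 35.7%. The shares called lower were 5.4%, 2.28%, 2.38% and 0%. In IP 1 alone the medians for 0, 1, 2 and 3 or more matches were −0.04, 0.41, 0.74 and 2.20, and in IP 2 alone they were −0.20, 0.26, 0.57 and 1.56. Each pulldown therefore gave the same order. The inputs are common to both sets of medians. Without input 1 the median for 3 or more matches was 2.35, and without input 2 it was 1.39.

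Genes with matches also had longer UTRs, with a median of 2.36 kb against 1.08 kb. Within each range of UTR length the genes with a match were called higher more often. The shares were 4.8% against 1.61% below 1 kb, 8.03% against 2.34% from 1 to 2 kb, 7.62% against 3.13% from 2 to 4 kb, and 11.1% against 3.9% above 4 kb. Genes with a match still had longer UTRs inside each range. In the same order the median lengths were 0.652 against 0.437 kb, 1.51 against 1.43 kb, 2.80 against 2.69 kb and 5.57 against 5.0 kb. No other heptamer was searched for comparison. Higher genes had longer transcripts as well: the median exon length of protein-coding genes was 5.84 kb for those called higher, 2.80 kb for those called lower and 4.44 kb for all tested. The part of length in these counts was not tested further.

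**Figure D4:**
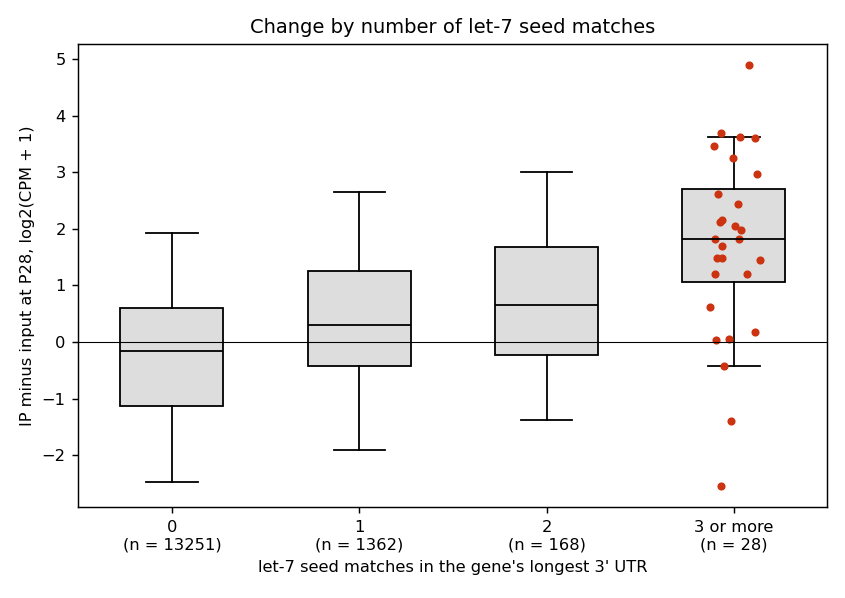
Difference between IP and input at P28 (y axis, log2(CPM + 1)) of protein-coding genes by the number of let-7 seed matches in their longest 3' UTR (x axis), with boxes from the first to the third quartile, a line at the median, whiskers at the 5th and 95th percentiles, and each gene of the last group as a point. The medians are −0.15, 0.31, 0.65 and 1.82, and 10 of the 28 genes with 3 or more matches were called higher.

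The 28 genes with 3 or more matches ran from Hic2 (4 matches) at 4.89 down to Nudt12 (7 matches) at −2.55. Those called were Hic2, Trim71, Fignl2, Nr6a1, Zfp512b, Fign, Diaph2, Ago2, Trim6 and Slc22a23. Nr6a1, an orphan nuclear receptor of germ cells and embryos, held 8 matches and was at 155 and 216 CPM in IP and at 11.5 and 17.4 CPM in input, a difference of 3.61 (limma adjusted p = 0.0013). Among 30 genes long known as let-7 targets, 24 held a match. Of the 30, 12 were higher and 0 lower, beside 3.16% and 5.17% of all tested genes. This list was chosen with earlier results of these data known, so its counts are not separate support. Both pulldowns were above both inputs in 20, beside 16.5% of all tested genes. Dicer1 and Trim71, both called higher, are also on the list of the microRNA machinery. The median of the let-7 targets was 1.85. Without IP 2, 12 were again higher, with Hmga2 in and Zcchc3 (limma adjusted p = 0.051) out. Plagl2, a zinc finger transcription factor, was at 162 and 111 CPM in IP and 22.9 and 1.69 CPM in input, a difference of 4.07 (limma adjusted p = 0.00121). Prtg, a receptor of the early embryo, was at 138 CPM in both pulldowns and at 25.8 and 1.14 CPM in input, a difference of 4.20 (limma adjusted p = 0.000962). Nras, the small GTPase, was at 189 and 235 CPM in IP and 44.6 and 9.39 CPM in input, a difference of 3.28 (limma adjusted p = 0.00353).

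The targets did not all stand apart. Lin28a, an RNA-binding protein that blocks let-7 maturation, was listed at 0 in all 4 libraries. Its paralog Lin28b was at 12.0 CPM in IP 1, 0.0212 CPM in IP 2, and 0.165 and 3.87 CPM in the inputs. Hmga2, a chromatin protein of growing cells, was at 9.78 CPM in IP 1 and had no read in IP 2. The cyclins Ccnd1 and Ccnd2 had differences of −0.25 and 0.36. The TNRC6 genes and Dicer1 held no match in their longest 3' UTR.

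Genes of fetal and neonatal growth overlapped in part with the let-7 list. Of 14 tested, 3 were higher and 0 lower, beside 3.16% and 5.17% of all tested genes, with a median of 1.73. Sox11 (chr12:27334264-27342574), a transcription factor of immature neurons and sensory cells, was at 212 and 253 CPM in IP and at 24.0 and 10.4 CPM in input, a difference of 3.78 (limma adjusted p = 0.000815). Igf2bp2, an RNA-binding protein of growing tissue and itself on the let-7 list, was at 65.5 and 40.3 CPM in IP and 9.99 and 0.672 CPM in input. Its difference was 3.61 (limma adjusted p = 0.00326). Mest, an imprinted gene, was at 12.7 and 13.8 CPM in IP and 2.003 and 0.232 CPM in input (limma adjusted p = 0.0288, and 0.0879 without IP 2). The imprinted growth factor Igf2 was at 416 and 564 CPM in IP and 119 and 133 CPM in input, and the noncoding H19 at 164 and 110 CPM and 37.3 and 21.7 CPM. Their pulldowns lay above their inputs, as in 16.5% of all tested genes, but limma adjusted p values were 0.131 and 0.0639. Cdkn1c, an imprinted inhibitor of growth, had the opposite sign, at 29.1 and 33.5 CPM in IP and 91.6 and 88.9 CPM in input (limma adjusted p = 0.186).

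Nuclear and untranslated RNAs were also higher in the pulldown. Of 8 tested, 3 were higher and 0 lower, beside 3.16% and 5.17% of all tested genes. Their median was 1.89, and all 8 differences were above 0. Kcnq1ot1 (chr7:143203458-143296549), an antisense RNA that silences imprinted genes in the nucleus, was at 716 and 755 CPM in IP and at 45.6 and 31.5 CPM in input, a difference of 4.24 (limma adjusted p = 7.53e-05). Xist, which coats the inactive X chromosome, was at 281 and 140 CPM in IP and 29.6 and 8.48 CPM in input, a difference of 3.55 (limma adjusted p = 0.00166). Airn was called as well, with 4.51 and 6.81 CPM in IP and 0.0735 and 0.0463 CPM in input. Without IP 2, Airn lost the call (limma adjusted p = 0.145) and Mirg, another noncoding RNA, gained one. Malat1, an abundant nuclear RNA, was at 15000 and 9169 CPM in IP and 2763 and 4157 CPM in input (limma adjusted p = 0.317). The share of reads counted to no annotated feature, 42.4% and 30.2% against 13.9% and 11.2%, was higher in the same pulldowns. Whether this share includes reads in introns is not given in the sources used here. Whether strand was used in counting is not given in the sources used here, so reads of Kcnq1ot1 and Airn and of the genes they overlap could not be told apart. The part of nuclear or unspliced RNA in the higher genes was not tested.

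Genes of energy metabolism were among those lower in the pulldown. Messages encoded by the mitochondrial genome are translated on mitochondrial and not on tagged cytosolic ribosomes. Of 9 tested, 5 were lower and 0 higher, beside 5.17% and 3.16% of all tested genes, with a median of −2.49. Their summed level was 2771 and 2242 CPM in IP and 24270 and 21230 CPM in input. mt-Co1, a core subunit of cytochrome oxidase, was at 425 and 244 CPM in IP and at 8966 and 6977 CPM in input, a difference of −4.62 (limma adjusted p = 0.000896). mt-Nd2, mt-Nd4, mt-Nd5 and mt-Cytb were the other 4 called. Without IP 2, mt-Co1 and mt-Nd5 were called. Of the 13 genes of the list, 6 were listed at 0 in all 4 libraries, and 2 of these are among the 9 tested.

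Nuclear genes of oxidative phosphorylation were lower in 14 of 29 tested and higher in 0, beside 5.17% of all genes lower, with a median of −2.11. Both pulldowns were below both inputs in 26 of the 29, beside 26.3% of all tested genes. The summed level was 1240 and 1401 CPM in IP and 5162 and 5476 CPM in input. Cox4i1 (cytochrome oxidase) was at 88.8 and 122 CPM in IP and 641 and 662 CPM in input, a difference of −2.64 (limma adjusted p = 0.0126). Atp5b (ATP synthase) was at 170 and 147 CPM in IP and 776 and 751 CPM in input, a difference of −2.27 (limma adjusted p = 0.0375). Ndufb3 (complex I) was at 19.97 and 0.169 CPM in IP and 102 and 86.9 CPM in input, so that IP 2 carried most of its difference of −4.27. Without IP 2, 3 were called: Ndufs6, Ndufa2 and Cox6c. The median was then −1.97. Cycs, cytochrome c, was above 0 but not called (limma adjusted p = 0.51). Uqcrc1, of complex III, was listed at 0 in all 4 libraries.

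Glycolysis, the ribosome and oxidative stress defence followed the same direction with fewer calls. Their counts stand beside 5.17% lower and 3.16% higher of all tested genes. Of 17 glycolysis genes, 3 (Pgk1, Eno1 and Aldoc) were lower and 0 higher, with a median of −1.51, and Aldoc remained without IP 2. Aldoc, a brain form of aldolase, was at 23.3 and 62.8 CPM in IP and 160 and 212 CPM in input (limma adjusted p = 0.0427). Gapdh was at 8.60 and 0.0212 CPM in IP and only 3.09 and 1.32 CPM in input, so that this table holds few of its reads. Of 34 tested ribosomal protein genes, 7 were lower and 0 higher, with a median of −1.56, and 5 were lower without IP 2. Rps14 was at 7.25 and 34.8 CPM in IP and 113 and 163 CPM in input, a difference of −2.99 (limma adjusted p = 0.00597). Reads shared with ribosomal protein pseudogenes could not be assigned, and Rpl38 was listed at 0 in all 4 libraries. Of 17 genes of oxidative stress defence, 3 were lower and 0 higher, with a median of −1.69, and both pulldowns were below both inputs in 16, beside 26.3% of all tested genes. Cat (catalase) was at 4.96 and 0.0846 CPM in IP and 55.3 and 27.3 CPM in input (limma adjusted p = 0.00122, and 0.067 without IP 2). Without IP 2 none of these 17 was called by limma, and the median was −1.74.

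Markers of other cochlear cells mostly had medians below 0, on CPM over all reads, a scale that lowers gene values in IP relative to input. Their counts stand beside 3.16% higher and 5.17% lower of all tested genes. Fibrocyte and mesenchyme markers had a summed level of 9694 and 8964 CPM in IP and 39180 and 37800 CPM in input, with 0 of 14 higher and 3 lower (Fbln1, Dcn and Lum). Their median was −1.83, and 0 were called without IP 2. Coch, the major protein of spiral ligament fibrocytes, was at 1994 and 1593 CPM in IP and 7223 and 6487 CPM in input (limma adjusted p = 0.177). Stria vascularis markers had a summed level of 2129 and 1896 CPM in IP and 6990 and 5135 CPM in input. Of 16 tested, 0 were called, while both pulldowns were below both inputs in 13 (26.3% of all tested genes), with a median of −1.30. Supporting cell markers summed to 1556 and 1689 CPM in IP and 3315 and 2970 CPM in input, and 0 of 17 were called, with a median of −0.76. Gjb2, the connexin of supporting cells and fibrocytes, was at 371 and 410 CPM in IP and 1080 and 879 CPM in input. None of the defining markers of these 3 lists was at 0 in the pulldowns.

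Spiral ganglion markers had 2 of 15 lower (Snap25 and Calb2) and 0 higher, with a median of −0.60. Here and for the next lists, the shares of all tested genes were 5.17% lower and 3.16% higher. Snap25, a synaptic SNARE protein, was at 119 and 102 CPM in IP and 454 and 504 CPM in input (limma adjusted p = 0.0344, and 0.168 without IP 2). Schwann cell and myelin markers had 1 of 12 lower (Mag) and 0 higher, with a median of −0.9975. Endothelial and pericyte markers had 2 of 11 lower (Acta2 and Tek) and 0 higher, with a median of 0.01. Bone and cartilage markers had 1 of 15 lower (Spp1, osteopontin), with a median of −0.52. Without IP 2 the calls on these 4 lists were lost. Neutrophil markers summed to 81.8 and 14.9 CPM in IP and 198 and 190 CPM in input, with 2 of 10 lower (Lcn2 and S100a8), of which Lcn2 remained without IP 2. Macrophage markers summed to 46.1 and 72.3 CPM in IP and 119 and 142 CPM in input, with 0 of 11 called. Erythroid markers summed to 301 and 576 CPM in IP and 528 and 1214 CPM in input, with 0 of 9 called. Lymphocyte markers summed to 21.7 CPM or less in every library and muscle markers to 63.6 CPM or less. The part of these cells in the results was not tested.

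**Figure D5:**
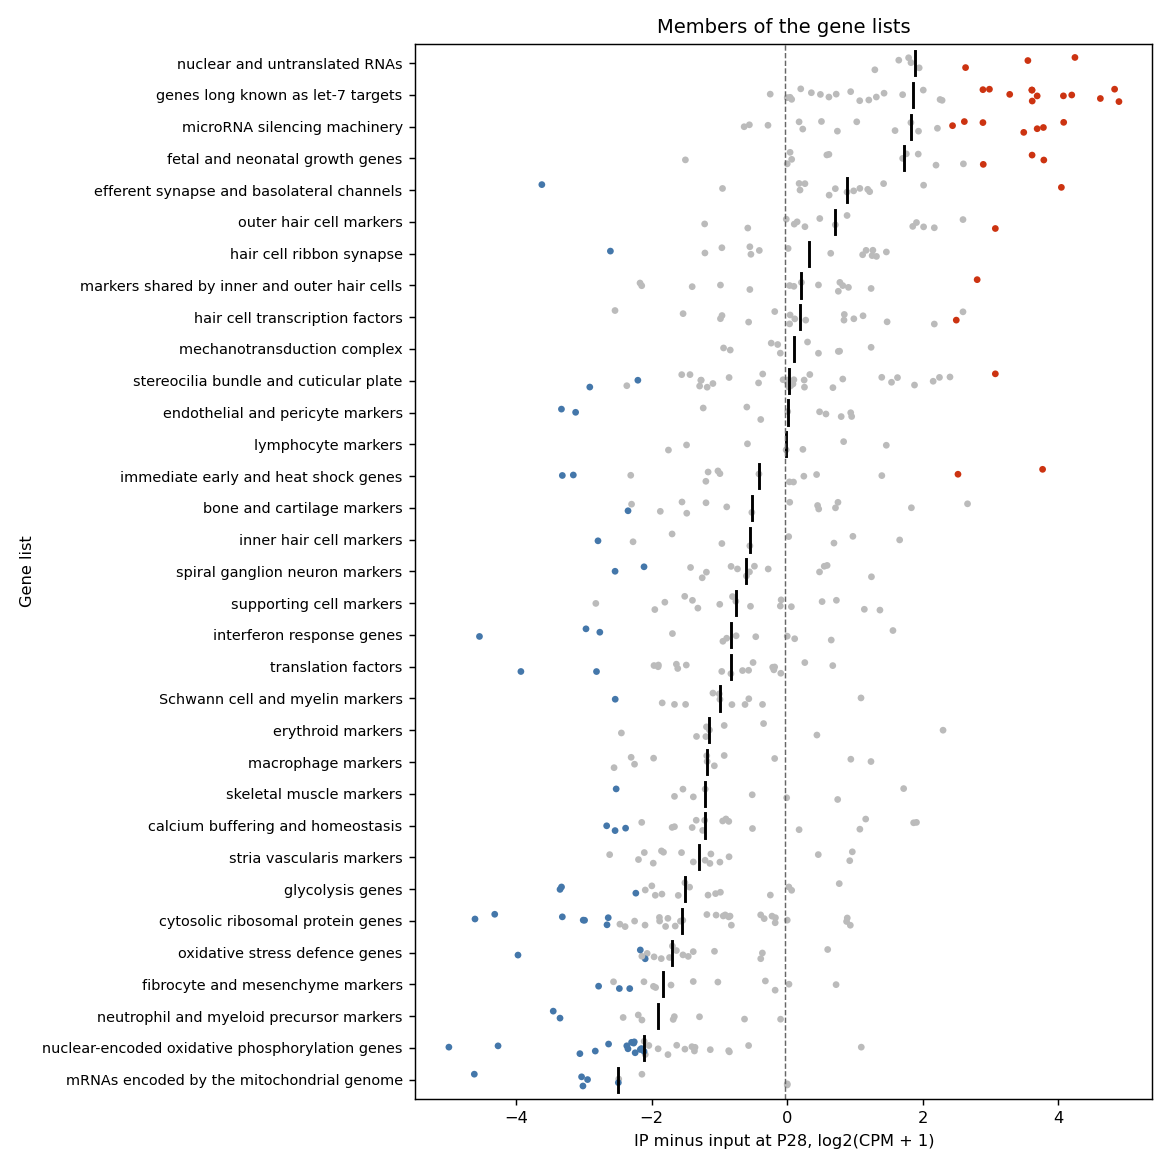
Difference between IP and input at P28 (x axis, log2(CPM + 1)) of each tested member of the gene lists (y axis, ordered by median), with called members in red (higher) or blue (lower), others in grey, the list's median as a black bar and the median of all tested genes as a dashed line. Nuclear RNAs, let-7 targets and the microRNA machinery have medians of 1.82 to 1.89, and the oxidative phosphorylation and mitochondrial lists have medians of −2.11 and −2.49.

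Immediate early and heat shock genes, which respond to handling of tissue, split. Of 15, 2 were higher and 2 lower. Here and for the next lists, the shares of all tested genes were 3.16% higher and 5.17% lower. Ier2 was at 96.0 and 192 CPM in IP and at 6.80 and 12.0 CPM in input, a difference of 3.77 (limma adjusted p = 0.00235), and Dusp1, a MAP kinase phosphatase, was at 147 and 261 CPM in IP and 38.8 and 28.7 CPM in input. Hspa1a and Hspb1, chaperones of the heat shock response, were lower. Without IP 2 the calls of Ier2 and Hspa1a remained. Fos had no read in IP 1 and was at 9.75 CPM in IP 2, and at 0.312 and 0.185 CPM in input. Among 12 interferon response genes, 3 (Ifi27l2a, Usp18 and Ifi27) were lower and 0 higher, and 0 were called without IP 2. Of 19 translation factors, 2 (Eif2s1 and Eif3c) were lower and 0 higher, and 0 were called without IP 2.

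The other ages share no library with the P28 comparison, although their spread entered the same fit. Of the 593 genes higher at P28, 86.0% were above 0 at P8, 81.8% at P14, 92.4% at 6 weeks and 92.9% at 10 weeks. The shares of all tested genes above 0 at these ages were 75.5%, 39.1%, 62.4% and 49.2%. Above 0 at all 4 other ages were 412 of the 593 (69.5%), against 23.4% of all tested genes. Also called higher were 246 of them at P8 (41.5%), 97 at P14 (16.4%), 130 at 6 weeks (21.9%) and 100 at 10 weeks (16.9%). Of all tested genes, 11.6%, 1.71%, 1.26% and 1.8% were called higher at these ages. Of the 968 genes lower at P28, 49.2% were below 0 at P8, 91.4% at P14, 83.9% at 6 weeks and 91.0% at 10 weeks, against 21.9%, 59.7%, 37.0% and 50.4% of all tested genes. Also called lower were 3, 166, 5 and 165 of them, beside 0.0374%, 2.64%, 0.0267% and 2.41% of all tested genes. For Hic2 the differences were 5.68 at P8, 4.81 at P14, 5.54 at 6 weeks and 3.35 at 10 weeks, beside 4.89 at P28. mt-Co1 stood at −1.98, −4.65, −4.34 and −4.57, beside −4.62.

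The outer hair cell markers had a median of 0.71 at P28 and of 1.40 over the mean of the other ages. For Ikzf2 the difference was 2.17 at P28 and 2.72 over the other ages, and for Ocm it was 1.91 and 2.58. For the microRNA machinery the medians were 1.82 and 1.71, for the let-7 targets 1.85 and 2.56, and for the nuclear genes of oxidative phosphorylation −2.11 and −1.27. Over the other ages the medians of genes with 0, 1, 2 and 3 or more let-7 seed matches were 0.12, 0.67, 0.92 and 1.89, beside −0.15, 0.31, 0.65 and 1.82 at P28. For all tested genes the median of P28 minus the other ages was −0.36. Relative to it, the medians were −0.19 for outer hair cell markers, −0.07 for the microRNA machinery, −0.04 for let-7 targets and −0.22 for oxidative phosphorylation. Ikzf2 was at −0.19 and Ocm at −0.31. Genes with 0, 1, 2 and 3 or more matches were at −0.04, −0.02, −0.10 and 0.20. The relative values were not tested.

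A test of the difference between P28 and the mean of the other ages called few genes. In that contrast of the same limma fit, 13 genes had a larger difference at P28 (0.0694% of those tested) and 20 a smaller one (0.107%), 0.176% in all, and 2069 passed an unadjusted p under 0.05. The median over all tested genes was −0.36. Without IP 2 the counts were 48 and 9, and without IP 1 the total rose from 33 to 1431. Rps29, a ribosomal protein of the small subunit, was the member of the gene lists that was called, at 0.0301 CPM and no read in the pulldowns and 9.59 and 2.87 CPM in the inputs. Its difference between the ages was −3.49 (limma adjusted p = 0.037, and 0.062 without IP 2), or −3.13 relative to the median, which was not tested. No outer hair cell marker, let-7 target or gene of the microRNA machinery was called here, and with 2 libraries per group a missed call does not show that the ages were alike.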

How the data were processed

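For each library the authors deposited CPM values, which sum to 1000000 when the 5 entries that name no gene are included. The submitters' processing notes name TopHat and GRCm38, with no role or version. How reads were counted, and whether strand was used, is not given in the sources used here. The tables hold 49671 gene identifiers (49326 with a symbol, 49412 on GENCODE M21), and the 5 other entries were kept out of tests. All values (100%) were whole multiples of 1 read within a tolerance of 0.01, 1 read being worth 0.0141 to 0.0325 CPM, so whole reads were recovered for count tests. The P28 libraries held 15306134 to 33974166 gene reads.

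The tested genes reached 1 CPM in 2 or more libraries. log2(CPM + 1) was fitted, two-sided, with limma 3.58.1 (R 4.3.3), a trended prior and 1 mean for each of 10 groups of age and fraction over 22 libraries. The contrasts were IP minus input at P28, and that difference minus its mean over the 4 other ages. p-values were adjusted by Benjamini-Hochberg over all tested genes. On simulated reads with a dispersion of 0.05 (2 libraries per P28 group) the P28 contrast recovered 28% of 2-fold and 98% of 4-fold changes among 16335 genes, and the second contrast 96% of 4-fold changes among 16299 genes. These shares hold for that dispersion only: in the real libraries Ikzf2, with a difference of 2.17, was not called.

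Named are the 12 largest called changes each way per contrast whose higher P28 group averaged 5 CPM or more. Symbols of predicted genes and pseudogenes were left out and, for IP against input, genes whose groups overlap. Called and leading members of 33 gene lists (503 genes, 482 tested) are added, and Slc26a5, Ocm, Ikzf2 and Rpl22 always. Other genes named, from the lists or the UTR counts, were chosen after their values were seen. The comparison, lists and rules were chosen with earlier results of these data known. Alternatives were a pseudocount of 0.25, no filter, a filter at 5 CPM, TMM scaling, quantile normalization, CPM over gene reads, removal of mitochondrial and haemoglobin genes, a replicate block, only the P28 libraries, leaving out P8 input 2 and P14 IP 1, edgeR 4.0.16, DESeq2 1.42.0 and leaving out each P28 library. Leaving out IP 2 with TMM scaling was added after the data were seen. UTRs were searched with Python 3.11.15.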

Additional observations from a re-analysis of the deposited data

Results flagged for a closer look

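For 12 genes averaging 5 CPM or more in the higher P28 group, the difference between pulldown and input at P28 departed from its mean over the other ages in the limma contrast. Values are log2 differences relative to the median of all tested genes, −0.36. The p-values belong to the differences before this median is subtracted, such as 3.26 for P2rx5 and −4.68 for Cnep1r1, and the relative values were not tested.

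P2rx5, an ATP-gated channel, had a value of 3.62 (limma adjusted p = 0.029) and Nlrc5, a regulator of antigen presentation genes, one of 3.40 (limma adjusted p = 0.017). Cnep1r1 (−4.32), Ccdc18 (−2.87) and Asb2 (−2.36) each had a limma adjusted p of 0.011. Nhp2 was at −3.83, Rps29 at −3.13 and Insl6, of the insulin and relaxin family, at −2.24. Ube2q2, a ubiquitin-conjugating enzyme, was at −3.74, Zfp60 at −3.64, Med24, a subunit of the Mediator complex, at −3.61 and Tmtc4 at −3.53. Without IP 2 the calls of Nlrc5, Ccdc18 and Asb2 remained (limma adjusted p = 0.027, 0.027 and 0.033), and those of the other 9 were lost, with adjusted p from 0.057 to 0.30. The cause was not tested.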

How the results depend on the processing

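Under the 17 alternatives, none of the called genes among 178 named or listed ones changed sign, and those not called that did so at least once include Cd79a, Chrna10, Hba-a2, Hes1, Pcdh15, Shtn1 and Slc26a5. The total called in IP against input, 1561, was 387 with no filter on low values, 4217 with TMM scaling, 4173 with quantile normalization, 2450 with CPM over gene reads, 2437 without mitochondrial and haemoglobin genes, 4123 without P8 input 2 and P14 IP 1, 3276 in edgeR, 6042 in DESeq2, 0 with only the P28 libraries (2628 at an unadjusted p under 0.05), 3900 without IP 2 under TMM, and 669 to 2798 leaving out each P28 library. Of called genes, 38.0% were higher, against 53.6% over gene reads, 50.8% without mitochondrial and haemoglobin genes, 51.2% in DESeq2, 68.8% without IP 2 and 52.5% without it under TMM. The 33 calls against the other ages became 15 at pseudocount 0.25, 11 at a filter of 5 CPM, 170 with TMM, 91 with quantile normalization, 52 without mitochondrial and haemoglobin genes, 137 without P8 input 2 and P14 IP 1, 88 in edgeR, 1540 in DESeq2, 280 without IP 2 under TMM, and 57 to 1431 leaving out each P28 library. Deviations of same-numbered pulldowns and inputs correlated with r = 0.04 at P28, −0.02 at P8 and 0.08 at P14. The r was 0.35 at 6 weeks and 0.11 to 0.22 at 10 weeks. The titles number pulldowns and inputs alike, and these values do not show that they were unpaired. The main fit took no pairs. A replicate block gave 1990 and 75 calls. The excess of the median of genes with a let-7 seed match, 0.50, was 0.58 at pseudocount 0.25, 0.72 at 5 CPM, 0.56 with TMM, 0.54 with quantile normalization, 0.67 over gene reads, 0.64 without mitochondrial and haemoglobin genes, 0.73 in edgeR, 0.75 in DESeq2, 0.57 without IP 2 under TMM, and 0.47 to 0.52 leaving out each P28 library. Medians of the outer hair cell, microRNA machinery and let-7 target lists stayed above 0 throughout, and that of the mitochondrial list below. The medians of the shared hair cell, inner hair cell, mechanotransduction, stereocilia, ribbon synapse, lymphocyte, endothelial and immediate early lists changed sign under 1 to 5 alternatives. The cause of these shifts was not tested. With 2 libraries per group, 2-fold changes were mostly below detection in simulated reads.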

Other observations

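Gene classes chosen after their values were seen are given beside all tested genes, of which 3.16% were called higher and 5.17% lower at P28. Proteasome subunits (symbols in Psm) were lower in 9 of 40 (22.5%) and higher in 0, with a median of −1.13, and mitochondrial ribosomal proteins (Mrpl and Mrps) were lower in 12 of 76 (15.8%) and higher in 0, with a median of −0.94. Zinc finger genes with Zfp symbols were higher in 18 of 353 (5.1%) and lower in 7. Genes with Zbtb, Zkscan and Zscan symbols were higher in 5 of 59 (8.47%). Processed pseudogenes were lower in 144 of 1037 (13.9%) and higher in 11. Transcripts annotated as TEC, whose existence awaits experiment, were higher in 75 of 952 (7.88%), and those inside introns on the sense strand in 15 of 138 (10.9%).

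Several genes with the largest excess over the other ages did not pass the threshold. The relative differences were 4.62 for Cog5, 3.97 for Rtn4ip1, 3.95 for Trim46, 3.82 for Mlxipl, 3.77 for Mmp9 and 3.72 for En2, and −3.60 for Amer2 and Hacl1.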
